A study of Mus musculus with 12 samples.

Results

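The genes described here carry cargo in and out of the primary cilium: the subunits of the intraflagellar transport (IFT) trains, the motors that pull them, the BBSome and the ARL GTPases around it. There are 36 of them among the 52661 genes of the deposited expression table, taken by name from a list of known ciliary transport genes. Ift20 and Bbs2 stood out in earlier results of the same data by rising on induction in only 1 of the lines. Their values on knockdown and induction are therefore given as a description with no test, and counts of changed genes cover the other 34, of which 33 had enough reads to be tested.

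Polyadenylated RNA was sequenced from N2A cells, a mouse neuroblastoma line, after depletion of the splicing factor Puf60, which binds pyrimidine-rich sequence near 3′ splice sites. A pair of stable Flp-In rtTA3 lines carried a doxycycline-inducible, siRNA-resistant Puf60 cDNA with an N-terminal 3xFlag tag, which held exon 5 in the line pEx5 and lacked it in mEx5. In each line the control group received 15 nM non-targeting siRNA, the knockdown group 15 nM Puf60 siRNA, and the induced group Puf60 siRNA and, for 24 h, 2 µg/ml doxycycline, with harvest 48 h after transfection. Each of the 6 groups held 2 libraries, A and B. All groups carried the integrated cDNA. Doxycycline was never given to cells with the non-targeting siRNA, and the drug and the cDNA cannot be told apart. The labels do not say whether a line is 1 clone or a pool, nor whether duplicates were separate cultures, and each p-value below is judged against the spread of these duplicates, which may be technical.

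A primary cilium is built and maintained by trains that move along its microtubules. IFT-B trains are carried to the tip by the heterotrimeric kinesin-2 motor, and IFT-A with the dynein-2 motor brings them back. The BBSome is a coat complex that links membrane receptors to these trains, is assembled with the help of chaperonin-like proteins, and is recruited to membranes by ARL6. Loss of single members causes ciliopathies such as Bardet-Biedl syndrome and skeletal dysplasias. Most neurons carry a primary cilium. Cilia were not measured here.

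Expression was read from exon-exon junction reads summed per gene and given as counts scaled to library size (CPM), with 22908930 to 41494994 junction reads per library. Puf60 itself had 297 to 322 CPM in the 4 control libraries, 58.4 to 75.2 in the 4 knockdown libraries and 577 to 631 in the 4 induced ones, where reads of the cDNA are included. Of 10 sympathetic neuroblast markers, 8 exceeded 1 RPKM (the authors' length-scaled group value) in some group, and their sum was 572 to 679 RPKM in all 6 groups. Of 8 markers of multiciliated cells only Rsph1 passed 1 RPKM, and Foxj1, the master factor of motile cilia, was at most 0.06. The fibroblast list summed to 0.44 to 3.83 RPKM, with 1 of 6 markers over 1. The Schwann cell list summed to 61.9 to 101 RPKM, nearly all of it Pmp22, with Sox10 listed at 0 in every group. In bulk RNA, fewer cells of a type and less RNA per cell cannot be told apart.

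Ift20, an IFT-B subunit that also sits at the Golgi and helps sort membrane proteins to the cilium, moved in opposite ways on induction in the lines. In pEx5 it had 50.1 and 50.5 CPM in control, 28.3 and 29.4 in knockdown cells, and 20.9 and 20.3 in induced libraries. In mEx5 it had 49.1 and 46.2 CPM in control, 27.8 and 25.2 in knockdown cells, and 50.6 and 53.5 in induced libraries. The induced mEx5 libraries thus lay above every control library, and the induced pEx5 libraries lay below every knockdown library. As log2 changes, knockdown gave -0.80 in pEx5 and -0.85 in mEx5, and induction gave -0.49 and 0.97. Induced against control, the log2 difference was -1.29 in pEx5 and 0.13 in mEx5.

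All 5 annotated introns of Ift20 showed this pattern in their own junction reads. These reads make up the gene's sum, and Ift20 was chosen for this pattern, so they give no independent evidence. Relative to control, the induced pEx5 level was between 0.367 and 0.475 at the 5 junctions, and the induced mEx5 level was between 1.01 and 1.28. In knockdown the ratios were 0.508 to 0.617 in pEx5 and 0.468 to 0.603 in mEx5. Only a single exon and a single intron of Ift20 entered the splicing test. The exon, 229 nt long and not coding in the matched GENCODE M21 transcript, had a percent spliced in (PSI, the share of transcripts that include it) of 39.8 to 52.4 over all 12 libraries. The 362 nt intron was retained at 1.01% to 3.49% in the control libraries and at 7.34% to 9.15% in the knockdown libraries. It stayed at 9.09% and 10.8% in induced pEx5 and was 5.65% and 3.72% in induced mEx5. As a mean retention was highest in induced pEx5, whose libraries overlapped those of pEx5 knockdown. A link between retention and the level of Ift20 was not tested.

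The authors' deposited table, whose group values were used in choosing Ift20 and come from the same libraries, gives no independent evidence. On its RPKM scale Ift20 had 64.56, 37.59 and 29.28 in control, knockdown and induced pEx5, and 57.77, 35.62 and 66.85 in the same groups of mEx5. Ift20 lies on mouse chromosome 11 near Tnfaip1, which is read in the opposite direction, and Poldip2 (this pair was chosen for position, after their values had been seen). Tmem97, also listed for position, was not among the genes tested, so not every neighbour was examined. Tnfaip1 ranged from 47.3 to 62.5 CPM over all 12 libraries, with a log2 change on induction of -0.01 in pEx5 and 0.06 in mEx5. For Poldip2 these were 0.10 (limma adjusted p = 0.245) and 0.20 (limma adjusted p = 0.0363). Poldip2 also fell on knockdown in both lines together, by 0.22 (limma adjusted p = 0.00199). On knockdown, and on induction in mEx5, Poldip2 thus moved in the same direction as Ift20, by less. On induction in pEx5 it did not drop. Whether these genes change together was not tested.

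Bbs2, a subunit of the BBSome core, showed a smaller opposite movement and little response to knockdown. In pEx5 it had 25 and 24 CPM in control, 26.8 and 25.8 in knockdown cells, and 20.2 and 21.7 in induced libraries. In mEx5 it had 22.5 and 25 CPM in control, 21.6 and 23.5 in knockdown cells, and 30 and 27.8 in induced libraries. The induced libraries were the lowest of the pEx5 line and the highest of the mEx5 line, without overlap with the other groups of the same line. The log2 change on knockdown was 0.10 in pEx5 and -0.07 in mEx5, and on induction -0.33 and 0.36. Relative to control, single junctions of Bbs2 ran from 0.584 to 1.24 in induced pEx5 and from 0.874 to 1.53 in induced mEx5. Not every junction of Bbs2 thus showed the pattern.

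The second exon of Bbs2 differed between the induced lines in the same direction as its level. This exon is 228 nt long, fully coding and a multiple of 3, and was matched to exon 2 of 17 of the GENCODE M21 transcript at chr8:94092395-94092622 (mm10, minus strand). It is shown for that reason; no part was singled out, so no letter is in capitals.
Bbs2 exon 2: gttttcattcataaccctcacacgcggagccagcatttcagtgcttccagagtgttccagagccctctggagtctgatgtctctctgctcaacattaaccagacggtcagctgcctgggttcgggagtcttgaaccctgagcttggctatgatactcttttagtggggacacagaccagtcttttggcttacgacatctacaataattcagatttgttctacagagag
In pEx5 its PSI was 93.5 and 98.3 in control, 96.5 and 94.9 in knockdown cells, and 79.4 and 84.5 in induced libraries. In mEx5 it was 90.4 and 96 in control, 88.4 and 84.7 in knockdown cells, and 92.7 and 97.5 in induced libraries. The exon was thus least included in induced pEx5, by 13.7 points below knockdown as a mean, and 8.5 points above knockdown in induced mEx5. On knockdown in mEx5 its PSI changed by -6.6 points, where the level changed by -0.07 on the log2 scale. Between 133 and 238 reads per library stood behind these values. They belong to a gene chosen for its response and carry no test.

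**Figure D1:**
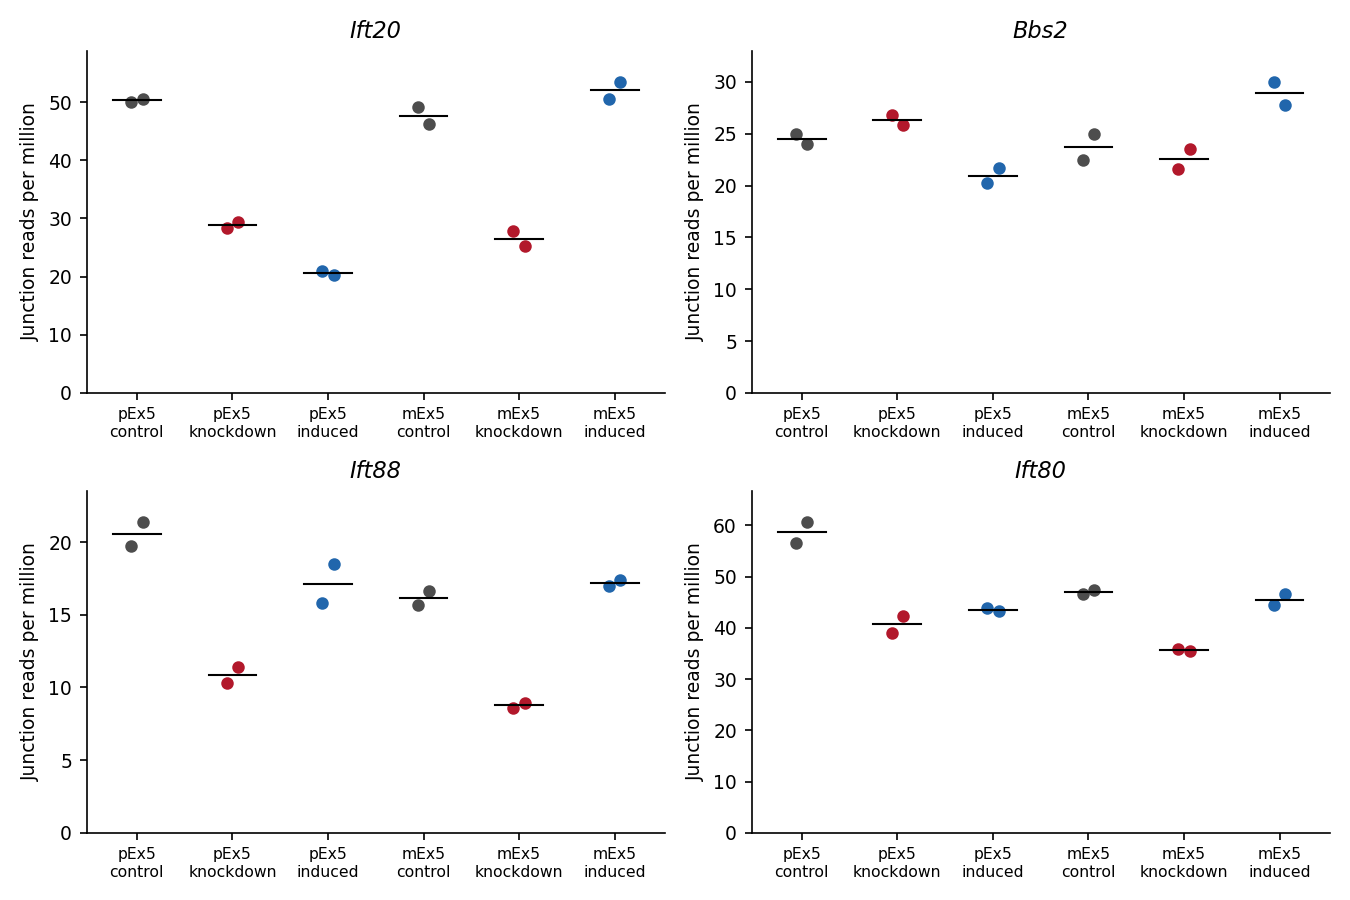
Scaled junction reads (CPM, y axis from 0) of Ift20, Bbs2, Ift88 and Ift80 in the 6 groups (x axis); each point is 1 library and the bar is the mean of 2. Ift20 and Bbs2 are lowest in induced pEx5 and highest in induced mEx5, whereas Ift88 is lowest in the knockdown groups of both lines.

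Beyond the chosen pair, knockdown of Puf60 reduced inclusion of exons in IFT and BBSome transcripts. Of 1369 splicing events of the members in the deposited table, 74 had at least 10 reads in each library and a mean PSI of 5 to 95, and 68 of these were outside Ift20 and Bbs2. Taking both lines together, 14 of the 68 fell and 2 rose (weighted limma on logit PSI, adjusted p under 0.05 over all 22767 events, change of at least 10 points). Over all events tested, 12.3% were called lower and 5.21% higher. All 14 that fell were exons, out of 33 exons tested, in 9 genes. Of all 8524 exons tested, 28.6% were called lower. The 28 introns and the 2 alternative 3′ splice sites of the members gave no call in either direction, where 8.78% and 10.8% of all such events were called. In pEx5 alone 15 events fell and none rose (11.1% and 4.16% of all events), and in mEx5 alone 14 fell and 2 rose (9.47% and 3.44%). Events called in 1 line but not in both together were a 9 nt exon of Kif3a (-11.2 points) and a 103 nt exon of Ift88 in pEx5. In mEx5 they were a 55 nt exon of Bbs4 (-12.5 points) and a 943 nt intron of Ift122 (10 points more retained). Without control library A of mEx5 its count of 16 was 10, and the unweighted test called 9 in pEx5 and 10 in mEx5. The test of the difference in knockdown between the lines called none of the 68, with 5 at an unadjusted p under 0.05 and 0% of all events called.

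Of the 14 exons, 12 were matched by gene, length and flanking introns to GENCODE M21 (mm10), and those that are fully coding and carry the findings below are printed here in lower case, since no part of them was singled out. They are shown so that their length, frame and place can be set beside the change in inclusion.
Ttc21b exon 28 of 29, chr2:66186154-66186221, minus strand: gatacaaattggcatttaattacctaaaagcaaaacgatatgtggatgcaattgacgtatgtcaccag
Ift43 exon 4 of 9, chr12:86138793-86138825, plus strand: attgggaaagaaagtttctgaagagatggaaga
Traf3ip1 exon 6 of 15, chr1:91505423-91505494, plus strand: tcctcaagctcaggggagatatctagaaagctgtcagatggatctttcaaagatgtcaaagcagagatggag
Ift27 exon 5 of 7, chr15:78165147-78165264, minus strand: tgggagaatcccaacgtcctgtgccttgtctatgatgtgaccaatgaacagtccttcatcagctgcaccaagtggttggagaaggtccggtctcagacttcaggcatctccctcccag
Ift80 exon 12 of 19, chr3:68927727-68927791, minus strand: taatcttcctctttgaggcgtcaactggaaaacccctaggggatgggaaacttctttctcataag
Ift52 exon 4 of 13, chr2:163025331-163025460, plus strand: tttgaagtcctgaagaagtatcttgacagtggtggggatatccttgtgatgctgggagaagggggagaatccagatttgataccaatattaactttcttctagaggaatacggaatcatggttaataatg
Bbs9 exon 14 of 22, chr9:22648020-22648034, plus strand: atcgaaatcctgatg
Bbs7 exon 3 of 18, chr3:36610566-36610628, minus strand: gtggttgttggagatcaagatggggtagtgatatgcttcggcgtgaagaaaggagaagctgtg

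The largest drop was in Ttc21b, which encodes an IFT-A subunit that is mutated in ciliopathies. Its exon 28, next to the last exon, is 68 nt long, so that skipping it changes the reading frame. In pEx5 the PSI of Ttc21b exon 28 was 94.3 and 94.6 in control, 54.2 and 44.7 in knockdown cells, and 72.2 and 76.2 in induced libraries. In mEx5 it was 92.1 and 98.1 in control, 60.4 and 60.8 in knockdown cells, and 88 and 86.3 in induced libraries. No knockdown library overlapped a control or an induced one. The mean change on knockdown was -39.8 points (weighted limma, adjusted p = 2.48e-07), with 168 to 347 reads per library. Induction raised inclusion by 24.8 points in pEx5 and 26.6 in mEx5. In induced pEx5 the exon was still 20.2 points below control, a difference that passed the test. In mEx5 that difference was -7.9 points and did not pass.

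Ift43, another IFT-A subunit, has a 33 nt exon that keeps the reading frame. Its PSI in pEx5 was 89.5 and 88.7 in control, 66.6 and 64.1 in knockdown cells, and 82.1 and 84.3 in induced libraries. The mEx5 libraries had 91.8 and 95.7 in control, 72.1 and 71.2 in knockdown cells, and 92.5 and 96 on induction. Knockdown libraries stood apart from all others, and the mean change was -22.9 points (weighted limma, adjusted p = 9.27e-07). Total junction reads of Ift43 did not pass the test on knockdown (log2 change -0.01, 95% interval -0.14 to 0.13).

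Ift52, a core subunit of the IFT-B complex, had 5 exons called. Exons of 125, 88, 130 and 76 nt follow one another near the start of the gene, and 3 of them have the same flanking exons in the table, so they share junction reads and are not 4 independent measurements. The 125 nt exon, which is not fully coding, had in pEx5 a PSI of 96.6 and 96.9 in control, 73.1 and 73.7 in knockdown cells, and 90.8 and 93.2 in induced ones. Its mEx5 libraries had 95.3 and 97.7, then 72.7 and 76.3, then 91.3 and 90.6. All 4 knockdown values lay below all others. The 88 nt exon had 96.2 and 95.7, then 74.1 and 73.8, then 89.4 and 94.1 in pEx5. Its mEx5 values were 93.4 and 96.2, then 72.2 and 76.4, then 90 and 90.9. Knockdown libraries did not overlap the others for either exon, with mean changes on knockdown of -22.7 and -21.2 points. The 130 nt exon changed by -17.4 points and the 76 nt exon by -16.8. Farther along the gene, exon 10, 155 nt long, changed by -10.7 points.

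Ift27, a small RAB-like GTPase of IFT-B needed for BBSome exit from the cilium, showed a drop in its 118 nt exon 5. In pEx5 the PSI of Ift27 exon 5 was 82 and 82.4 in control, 61.9 and 63.7 in knockdown cells, and 77.7 and 80.4 in induced libraries. In mEx5 it was 70.3 and 80.1, then 53.9 and 59.7, then 72.2 and 64.7. The control libraries of mEx5 were spread more widely, but each knockdown library lay below every other library (-18.9 points, weighted limma, adjusted p = 6.76e-05). The 65 nt exon 12 of Ift80, an IFT-B subunit mutated in Jeune syndrome, was noisier. Its PSI in pEx5 was 97 and 93 in control, 72.9 and 85.1 in knockdown cells, and 85.3 and 81.2 in induced libraries. In mEx5 it was 100 and 96.7, then 67.7 and 86.4, then 94.8 and 87.3. Knockdown lay below control in both lines (-18.7 points, weighted limma, adjusted p = 0.00121), but knockdown and induced libraries overlapped in pEx5, and neither induction passed the test.

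Bbs9, a BBSome subunit, has a 15 nt exon 14, a microexon that keeps the frame. Its PSI in pEx5 was 96.9 and 97.4 in control, 71.3 and 64.4 in knockdown cells, and 89 and 93.6 in induced libraries. In mEx5 it was 98.1 and 92.9, then 72.4 and 60.5, then 98.4 and 97.8. The mean change on knockdown was -29.2 points, with no overlap between knockdown and other libraries, but only 15 to 67 reads stood behind each value. Inclusion returned to within 5.9 points of control in pEx5 and was 2.6 points above it in mEx5, and neither difference passed the test.

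Arl13b, the GTPase of the ciliary membrane that activates ARL3 and is mutated in Joubert syndrome, had 2 neighbouring exons called. The 67 nt exon had a PSI of 89.7 and 90.9 in pEx5 control, 74.8 and 76.3 in knockdown and 86.4 and 89.2 in induced libraries. In mEx5 it was 90.4 and 87.4, then 71.1 and 65.8, then 85.9 and 83.1. The 67 nt exon thus changed by -17.6 points and the 250 nt exon by -15.2. The remaining exons were the frame-keeping 72 nt exon 6 of Traf3ip1, an IFT-B subunit that binds microtubules (-14.6 points), and the 63 nt exon 3 of the BBSome gene Bbs7 (-12.5 points). The Bbs7 exon was at 100 in every control library and between 80.6 and 94.9 in knockdown. On induction it stayed at 82.6 and 81.8 in pEx5 and was 89.9 and 100 in mEx5.

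The 2 events that rose were alternative 5′ splice sites with few reads, out of 5 tested (3.18% of all such sites were called higher). A site in Bbs1 that adds 202 nt rose by 12.9 points as a mean of both lines, but pEx5 knockdown had 14.3 and 4.76 against 6.67 and 7.55 in control, so that the rise came from mEx5 (25 and 26.5 against 2.22 and 2.38). A site in Bbs9 that adds 135 nt rose by 13.5 points, with 34.1 to 45.3 in knockdown and 19.3 to 32.3 in control. The Bbs9 site was not called by the unweighted test (adjusted p = 0.159). Among the called exons, 4 of 14 have a length that is a multiple of 3, against 8 of the 19 exons tested and not called, and the median lengths were 74 and 96 nt. In the authors' deposited table of splicing calls, 14 of the 16 events are listed. Of those, 14 carry the authors' call for knockdown in pEx5 and 13 in mEx5, and 12 and 11 carry the call for induction. The authors' calls come from the same libraries, and the events had been called here first, so they give no independent evidence. The share of all events with such calls is not given here. The authors' deposited calls also compare levels between lines: 1 of the 14, an Arl13b exon, is called between the knockdown groups. Between the induced groups 4 are called in the authors' deposited table, in Ift27, Ift43, Traf3ip1 and Ttc21b. That is a comparison of groups, not of the changes on induction.

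**Figure D2:**
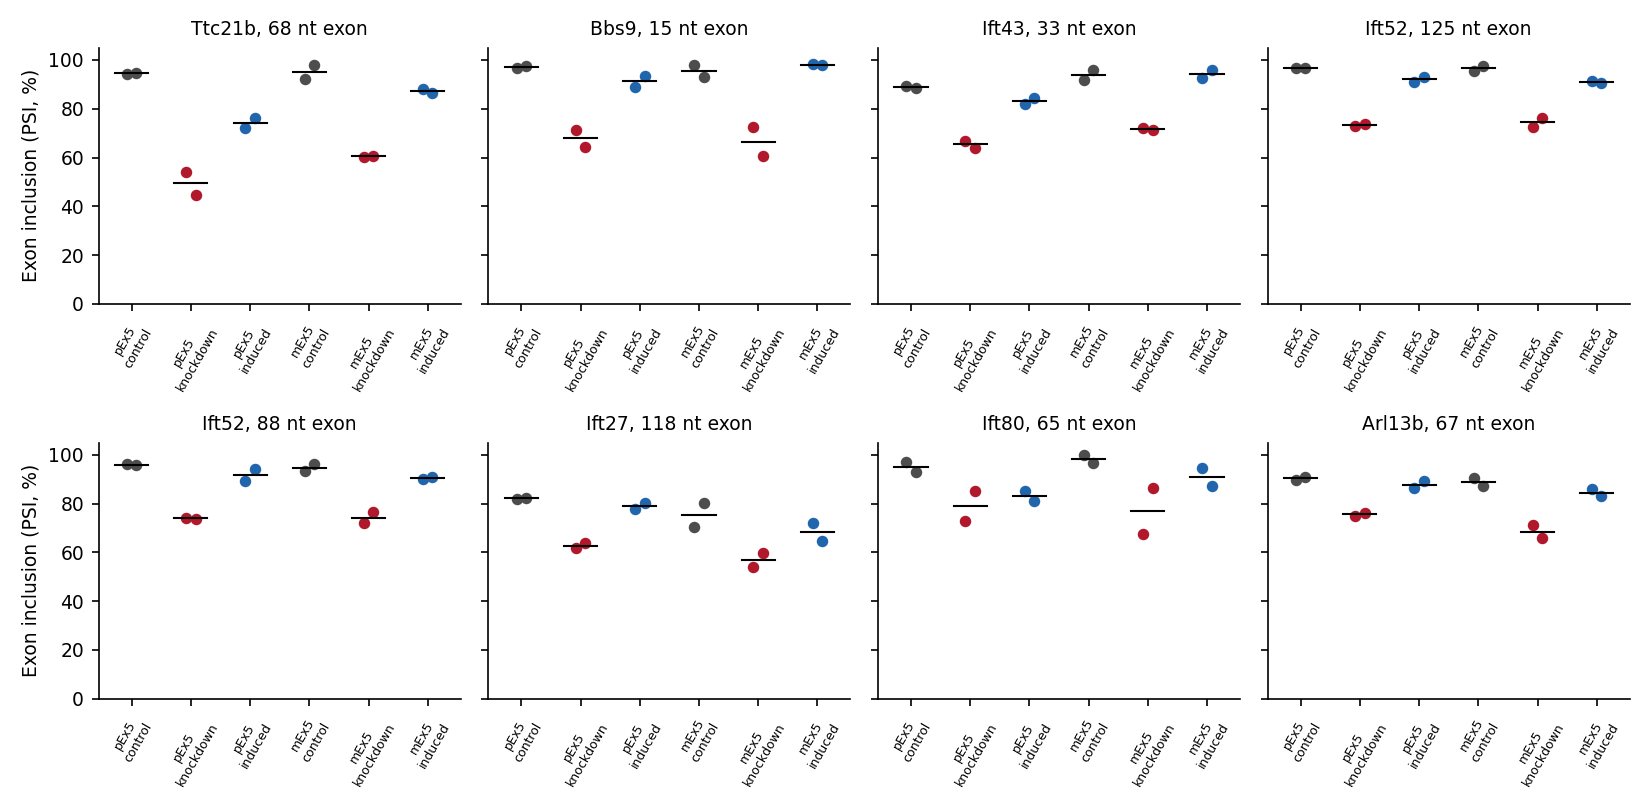
Percent spliced in (y axis, 0 to 100) of the 8 called exons with the largest change, in the 6 groups (x axis); each point is 1 library and the bar is the mean of 2. Ttc21b reaches the lowest inclusion, 44.7, in a pEx5 knockdown library, and the exons return toward control on induction in most panels.

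Induction raised inclusion of some of the members' exons in both lines. In pEx5, 11 of 68 events rose and none fell, against 5.87% of all events higher and 1.41% lower. In mEx5, 10 rose and none fell, against 7.95% and 2.45%. All events that rose in either line were exons, whereas these shares pool all types of event. The share over exons alone on induction is not given here. In both lines the neighbouring Ift52 exons, some of which share junction reads, are among those that rose. Without induced library B of pEx5 the count there was 7. In the unweighted test over all events 0 passed in pEx5 and 2 in mEx5. The test of the difference between the lines called 0 of the 68 events (0.272% of all events), with 7 at an unadjusted p under 0.05 and 0 under each alternative run. The exons called on knockdown had differences of between -4.6 and 9.7 points between lines in the 14 cases. Against control, 3 events of induced pEx5 passed the test (3.36% of all events). Besides exon 28 of Ttc21b these were a 66 nt exon of Kifap3 (12.7 points higher) and a 3537 nt intron of Ift80 (14.3 points higher). In mEx5 no event did (1.4% of all events), with 12 at an unadjusted p under 0.05.

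Total junction reads of the members changed on knockdown in both directions. Of 33 genes tested, 15 fell and 11 rose, taking both lines together (limma on log2 CPM, adjusted p under 0.05 over 10363 genes). Of all genes tested, 23.5% fell and 24.9% rose. The median log2 change was -0.10 over the members and 0.01 over all genes. All 4 knockdown libraries lay below all 4 control libraries for 8 of the 33 (24.2%), against 16.9% of all genes. They lay above them for 4 (12.1%), against 15.6%. In pEx5 alone 5 rose and 13 fell (17.5% and 17.5% of all genes), and in mEx5 alone 7 rose and 12 fell (15.1% and 16.1%). The 18 calls of pEx5 became 9 without its control B and 10 without its knockdown B. The 19 of mEx5 became 11 without its control A, 9 without its control B and 9 without its knockdown B. Members had a median of 1420 reads per library, near the 1182.7 of all genes tested.

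The IFT-B genes were divided, with 4 lower and 6 higher among 12 tested. Ift88, a core subunit without which cilia do not form in mice, fell the furthest. In pEx5 Ift88 had 19.7 and 21.4 CPM in control, 10.3 and 11.4 in knockdown cells, and 15.8 and 18.5 in induced libraries. In mEx5 Ift88 had 15.7 and 16.6 in control, 8.61 and 8.91 in knockdown cells, and 17 and 17.4 in induced libraries. Knockdown libraries stood below all others in each line. The log2 change was -0.90 ± 0.06 (SE; limma adjusted p = 1.3e-05), a level of 0.536 times control. Its 103 nt exon was called lower on knockdown in pEx5 (-23.2 points) and not in mEx5 (3.4), with as few as 25 reads.

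Ift27 fell by 0.57 on the log2 scale (limma adjusted p = 1.9e-05). Its pEx5 libraries had 47 and 47.9 CPM in control, 32.7 and 31.9 in knockdown cells, and 42.4 and 45.8 in induced cells. The mEx5 libraries had 45.7 and 45.4, then 31.5 and 29.2, then 42.3 and 40.2. Induced libraries of both lines thus lay between knockdown and control. Ift80 fell by 0.46 (limma adjusted p = 5.7e-05). In pEx5 Ift80 had 56.6 and 60.7 CPM in control, 39 and 42.4 in knockdown cells, and 43.8 and 43.3 in induced libraries. In mEx5 Ift80 had 46.5 and 47.3, then 35.8 and 35.4, then 44.4 and 46.6. Induced Ift80 was near its knockdown level in pEx5 and near its control level in mEx5. Ift52 fell slightly, by 0.11.

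The 6 IFT-B genes that rose did so by 0.15 to 0.32. Ift172, whose product acts in the turnaround at the ciliary tip, rose by 0.32 and the RAB-like GTPase gene Ift22 by 0.31. Cluap1, which is needed for cilium assembly, rose by 0.29. Ift46, Ift57 and Traf3ip1 rose by between 0.15 and 0.19. Of these, Ift46 passed only in pEx5, Traf3ip1 only in mEx5 and Ift57 in neither line alone. Ift74 (0.13) and Ift81 (-0.10), partners in tubulin binding, did not pass the test.

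In IFT-A, 4 of 6 genes fell and none rose. Wdr19 fell by 0.43 on the log2 scale (limma adjusted p = 0.0025). In pEx5 Wdr19 had 11.7 and 14.6 CPM in control, 9.03 and 10.1 in knockdown cells, and 10.7 and 12.2 in induced libraries. In mEx5 Wdr19 had 15.4 and 16.5, then 12.5 and 11.3, then 16.2 and 15.9. Each line's knockdown libraries lay below its other libraries. Ift140, which is mutated in retinal and skeletal ciliopathies, fell by 0.33 (limma adjusted p = 0.00183). In pEx5 Ift140 had 61.1 and 64.4 CPM in control, 50 and 52.4 in knockdown cells, and 50.7 and 54 in induced libraries. In mEx5 Ift140 had 55.4 and 50.1, then 43.1 and 39.2, then 44.6 and 40.2. Induced libraries overlapped knockdown in both lines. Ift122 fell by 0.27 and Ttc21b by 0.11, while Wdr35 (-0.05) and Ift43 (-0.01) did not pass.

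Among the motors, both dynein-2 genes fell. Dync2h1, the heavy chain, had 53.9 and 63.8 CPM in pEx5 control, 36 and 36.1 in knockdown cells, and 50.4 and 41.3 in induced libraries. In mEx5 Dync2h1 had 53.4 and 55.7, then 42.4 and 35.7, then 47.9 and 53.6. Knockdown left 0.663 times the control level, a log2 change of -0.59 ± 0.09 (SE; limma adjusted p = 0.000752), with no overlap between knockdown and control. Dync2li1, the light intermediate chain, had 25.7 and 31.6 CPM in pEx5 control, 19.2 and 19.9 in knockdown cells, and 24.4 and 29.6 in induced libraries. In mEx5 Dync2li1 had 36.6 and 35, then 27.8 and 27.6, then 36.7 and 39.1. Control libraries of mEx5 lay above those of pEx5, a difference that did not pass the test (0.33, limma adjusted p = 0.0721). On knockdown Dync2li1 fell (log2 change -0.46, limma adjusted p = 0.00181), and on induction it rose in both lines. Of the kinesin-2 genes, the adaptor gene Kifap3 fell by 0.31, the motor gene Kif3a rose by 0.14, and Kif3b (-0.13) did not pass.

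The BBSome genes tested were divided evenly, with 3 lower and 3 higher. Bbs1, the gene most often mutated in Bardet-Biedl syndrome, had 12.8 and 11.4 CPM in pEx5 control, 9.31 and 10.2 in knockdown cells, and 9.58 and 8.68 in induced libraries. In mEx5 Bbs1 had 10.3 and 12.4, then 7 and 7.62, then 7.48 and 7.95. It fell by 0.47 (limma adjusted p = 0.00117), and the induced libraries of both lines stayed below control. Bbs7 had 21.1 and 23.7 CPM in pEx5 control, 29.3 and 29.4 in knockdown cells, and 26.8 and 25.7 in induced libraries. In mEx5 Bbs7 had 24.7 and 24.6, then 32.5 and 30.4, then 30.6 and 28.9. All knockdown libraries of Bbs7 lay above all control libraries (log2 change 0.37, limma adjusted p = 0.000376). Bbs9 fell by 0.29 and Bbs4 by 0.21, while Bbs5 rose by 0.28 and Ttc8 by 0.16. By line, Bbs9 passed in both, Bbs4 only in pEx5, Bbs5 only in mEx5 and Ttc8 in neither.

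Bbs10, a chaperonin-like gene needed to assemble the BBSome, had the largest rise by junction reads, of which it had few, a mean of 21.9 per library over a single intron. In pEx5 Bbs10 had 0.37 and 0.536 CPM in control, 0.669 and 0.71 in knockdown cells, and 0.666 and 0.499 in induced ones. In mEx5 Bbs10 had 0.595 and 0.453, then 1.35 and 0.883, then 1.14 and 0.68. Knockdown and control libraries did not overlap. Its log2 change on knockdown was 0.77, with a 95% interval of 0.32 to 1.23 (limma adjusted p = 0.012). In the authors' deposited table the log2 change of Bbs10 was smaller, 0.32 in pEx5 and 0.52 in mEx5, at levels of 1.51 to 2.5 RPKM. Bbs12, its partner in the same assembly complex, had a mean of 3.75 reads and was not tested. Of the GTPases, Arl13b fell by 0.19, while Arl6 (-0.08), which recruits the BBSome, and Arl3 (-0.06), which unloads lipid-linked cargo, did not pass. By line, Arl13b changed by -0.09 in pEx5, where it did not pass, and by -0.30 in mEx5. In the authors' deposited table its changes were -0.07 and -0.11.

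**Figure D3:**
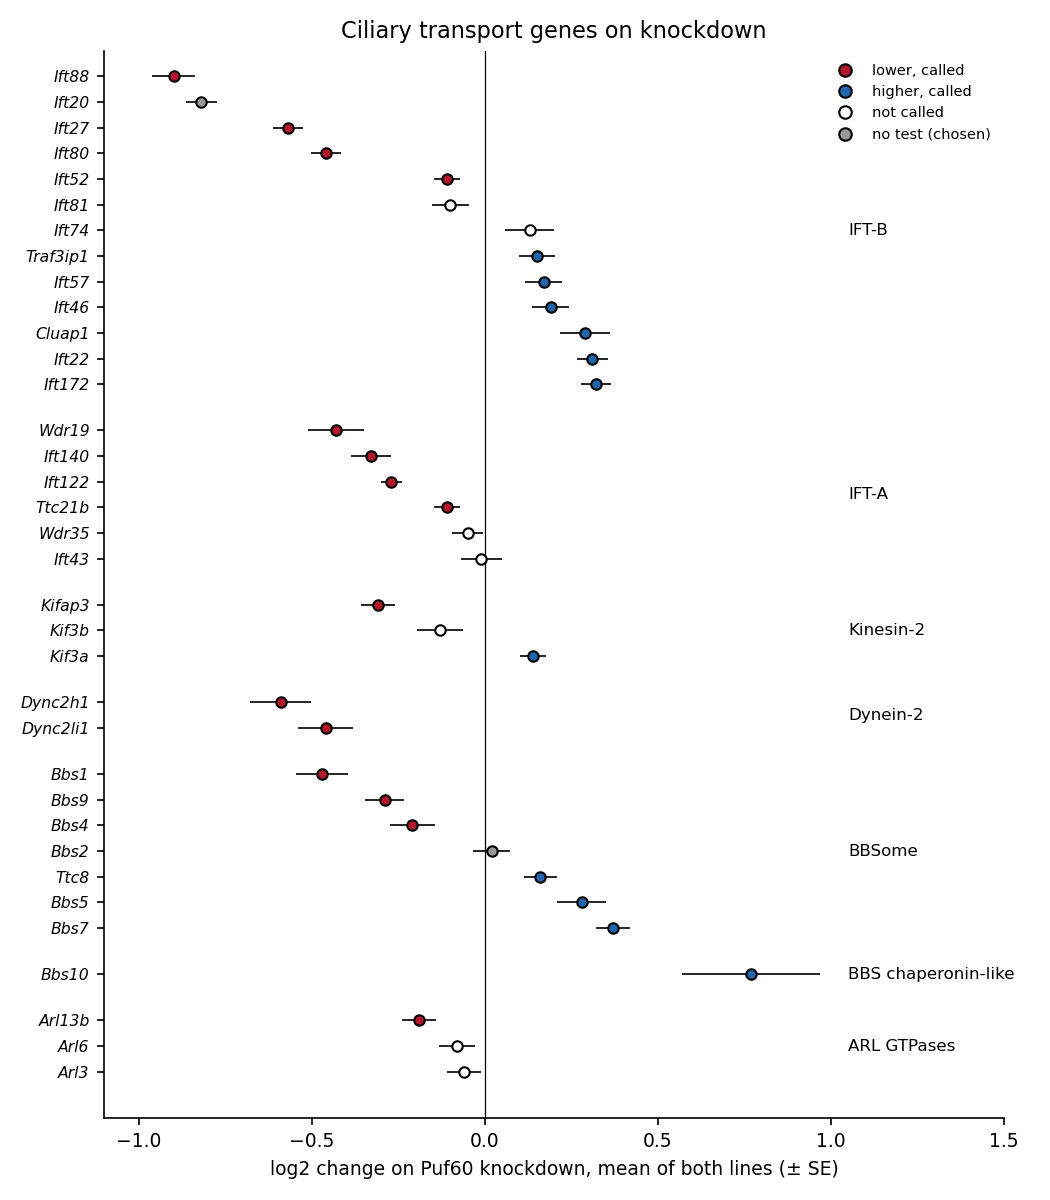
log2 change of junction reads on knockdown (x axis, mean of both lines ± SE) for 35 genes, grouped by role; filled red and blue points passed the test, open points did not, and grey points (Ift20 and Bbs2) carry no test. Both dynein-2 genes and 4 of 6 IFT-A genes lie to the left, while the IFT-B and BBSome genes lie on both sides.

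Whether the lines differed in their response to knockdown was tested directly. No member passed, and none had an unadjusted p under 0.05 (0.00965% of all genes passed). The differences ran from -0.32 to 0.42 on the log2 scale, with a median half-width of the 95% interval of 0.24. A p that misses the threshold here does not show that the lines respond alike.

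Induction brought fewer changes in total reads than knockdown. In pEx5, 5 of 33 members rose and 2 fell, against 10.2% and 6.48% of all genes. In mEx5, 6 rose and 1 fell, against 11% and 9.17%. The pEx5 count of 7 dropped to 4 without knockdown library A and to 3 without knockdown library B. The contrasts of induction and of knockdown share the knockdown libraries.

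Ift88 rose by 0.66 on induction in pEx5 and 0.97 in mEx5, Ift27 by 0.45 and 0.44, and Dync2li1 by 0.46 and 0.45. Ift122 rose by 0.59 and 0.51 and so passed its control level: it had 86.6 to 87.3 CPM in pEx5 control, 70.9 to 71.6 in knockdown and 107 to 108 in induced libraries. Its mEx5 levels were 73.9 and 74.1, then 62.3 and 61.5, then 87.3 and 89.5. Ift22 fell on induction, by 0.26 in pEx5 and 0.38 in mEx5. In pEx5 Bbs9 rose by 0.45 and Ttc8 fell by 0.25, and in mEx5 Ift80 rose by 0.35 and Wdr19 by 0.43, each without passing in the other line.

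Ift20 and Bbs2 carry no test of a difference in induction between the lines. No other member passed that test (0.145% of all genes passed), and 3 had an unadjusted p under 0.05. Ift88 differed by 0.31 (95% interval 0.03 to 0.59, limma adjusted p = 0.358) and Ift80 by 0.25 (0.06 to 0.45, limma adjusted p = 0.292), both toward mEx5. Bbs9 differed by -0.29 (-0.56 to -0.03, limma adjusted p = 0.354), toward pEx5. For Ift20 the same difference was 1.46 and for Bbs2 0.68, the values for which they were chosen. The intervals are too wide to show that the other members respond alike.

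**Figure D4:**
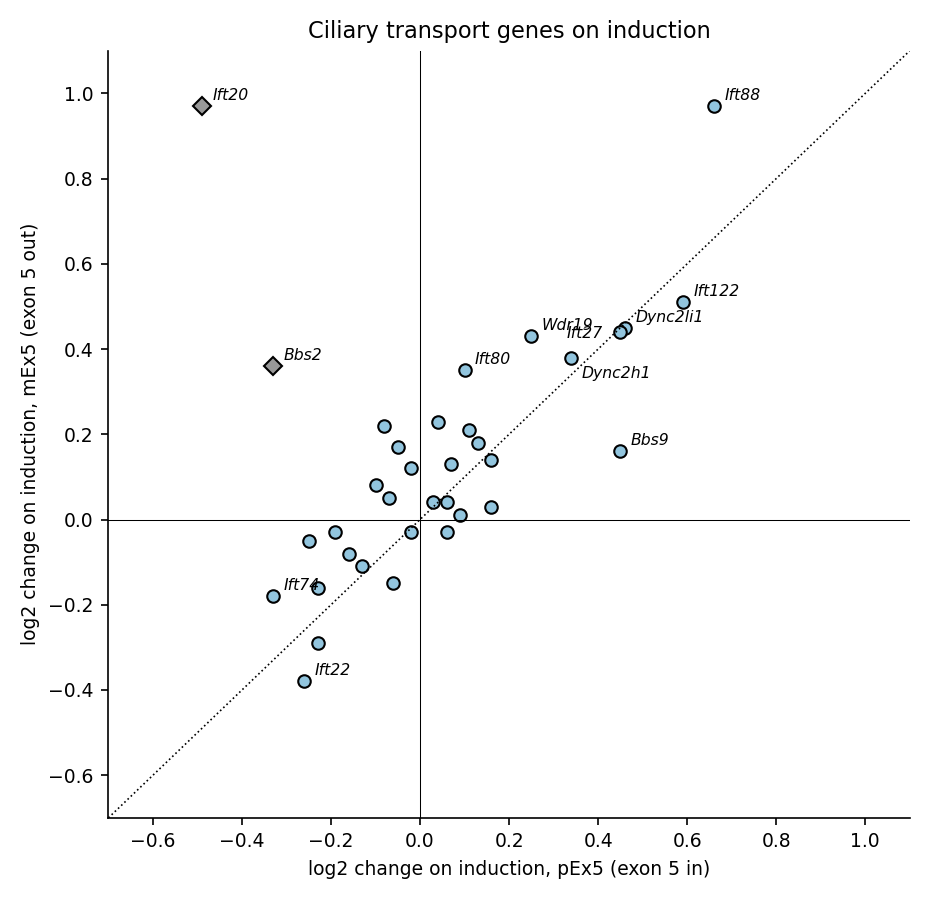
log2 change on induction in pEx5 (x axis) and mEx5 (y axis) for 35 genes; circles are members and grey diamonds are Ift20 and Bbs2, and the dotted line marks equal change. Ift20 and Bbs2 lie in the upper left, apart from the other members, which lie nearer the line.

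Some members differed from control after induction. In both lines, induced against control, Ift172 stayed higher (0.41 in pEx5 and 0.34 in mEx5), as did Bbs7 (0.23 and 0.27). Ift140 stayed lower (-0.26 and -0.32), as did Bbs1 (-0.40 and -0.55), and Ift122 was above control (0.30 and 0.26). Ift80 remained below control in pEx5 (-0.43) and was at -0.04 in mEx5, where it did not pass. Cluap1 (0.57) and Kif3a (0.23) were higher in induced mEx5. In all, 3 of 33 were higher and 3 lower in pEx5 (12.9% and 10.7% of all genes), and 5 were higher and 2 lower in mEx5 (8.22% and 7.71%). These counts rest on single libraries: the 6 in pEx5 became 3 without control A or without induced A. The 7 in mEx5 became 3 without control A, 1 without control B and 4 without induced A.

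The lines also differed before any knockdown. Comparing control libraries, 11 of 33 members were lower in mEx5 and 1 was higher, against 10.3% and 11.5% of all genes, and the median log2 difference was -0.15 over the members and -0.02 over all genes. The lower genes were Cluap1, Ift22, Ift74, Ift80 and Ift88 of IFT-B, Ift122 and Wdr35 of IFT-A, Bbs5, Bbs9 and Ttc8 of the BBSome, and Arl6, by between 0.23 and 0.38. Kif3a was higher by 0.20. The count of 12 fell to 4 without mEx5 control A, 3 without mEx5 control B and 5 without pEx5 control B. Levels set side by side across lines above include this difference.

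Among members the authors' deposited RPKM, which is scaled by length, placed Arl3 highest, at 131.01 RPKM in pEx5 control, then Ttc8 at 67.95, Ift20 at 64.56 and Arl6 at 42.68. Dync2h1 (3.34), Bbs1 (2.88), Wdr19 (1.69), Bbs10 (1.51) and Bbs12 (1.06) were lowest. Without libraries, neighbours in this order cannot be separated. By the authors' deposited table, knockdown in pEx5 raised 6 of the 34 members and lowered 15 (15.2% and 17.5% of its genes with a test). Knockdown in mEx5 raised 7 and lowered 12 by the authors' deposited table (14% and 16.8%). For Ift88 the authors' deposited table gave -0.87 and -0.89, and for Ift27 -0.53 and -0.54. For Ift22 the authors' deposited log2 change was 0.30 in pEx5, although its RPKM was 14.04 in control and 13.98 in knockdown.

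Other genes of the cilium were examined from a list of 66, of which 56 were tested. On knockdown 22 fell and 3 rose, against 23.5% and 24.9% of all genes, and their median log2 change was -0.12. The transition zone, the gate at the ciliary base, held 11 of the genes that fell and 2 that rose among 20 tested. B9d1 fell by 0.75, and Rpgrip1l (-0.52), Cep290 (-0.51) and Iqcb1 (-0.48) fell as well. Of 8 genes of the basal body appendages 5 fell and none rose, and of 13 other ciliary transport genes 5 fell and none rose, among them the dynein-2 light chain gene Tctex1d2 (-0.47). On induction, 15 of the 56 rose and 1 fell in mEx5 (11% and 9.17% of all genes), and 5 rose and 2 fell in pEx5 (10.2% and 6.48%). None of the 56 passed the test of a difference between the lines.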

How the data were processed

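RNA-seq of 12 libraries in 6 groups was analysed from 3 deposited tables. The authors' splicing table, in vast-tools format per the file headers, gave PSI in percent for 401633 events in each library, and a quality text with read counts and a quality score (deposited by the authors). The authors' expression table gave 1 rpkm value per gene and group, with log2 fold changes and p-values, for which the submitters' processing notes name Salmon 0.14.1, edgeR and mm10. The assembly of the splicing coordinates is not given in the sources used here, and they did not match mm10, so exon positions come from GENCODE M21. Another deposited table held the authors' splicing calls.

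Exon-exon junction reads were summed per gene over introns. Reads of skipping junctions may fall outside these sums. limma 3.58.1 in R 4.3.3 was fitted to log2 CPM, scaled by the median of ratios, with a prior count of 2, over the 10363 genes averaging 20 or more reads. Events were tested as logit PSI with a pseudocount of 0.5 reads and weights from reads (variance floor 0.01). All 12 libraries entered each fit with 1 coefficient per group, and p-values were adjusted by Benjamini-Hochberg. PSI recomputed from reads lay within 0.02 points for 98.89% of values.

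Tested on simulated data for knockdown in both lines, the gene test recovered 35 of 50 changes of 1.25-fold and 48 of 50 of 1.5-fold; 5 calls fell among 10163 unchanged genes. For the difference of induction between lines it recovered 3 of 50 at 1.25-fold and 28 of 50 at 1.5-fold. The event test recovered 18, 33, 41 and 48 of 50 changes of 10, 15, 20 and 30 points. The simulated data changed far fewer genes than were called here, all downward, and gave every gene the same dispersion. Changed events started away from both ends of the PSI scale, whereas most exons called here started near full inclusion. These rates may therefore not carry over to the data.

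The members and gene lists were chosen with earlier results of these data known. Values in every library are given for Ift20, Bbs2 and the 10 other members with the largest called change on knockdown, and for up to 8 called events; all events called on knockdown in both lines are named, with up to 6 other cilium genes, 1 of which is not reported here. Alternatives were other scaling, prior counts, filters, weights and thresholds, a replicate block, and leaving out each library. The labels' description calls doxycycline libraries uninduced, against their treatment field and titles, which were used. Ift22 and Ift43 stand in the splicing table under older names.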

Additional observations from a re-analysis of the deposited data

Results flagged for a closer look

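Ift20 and Bbs2 are listed because both libraries of one line moved one way on induction and both of the other line the opposite way. For Ift20 the log2 change was -0.49 in pEx5 and 0.97 in mEx5, a difference of 1.46. For Bbs2 it was -0.33 and 0.36, a difference of 0.68. The 228 nt exon of Bbs2 did the same in PSI, with -13.7 points in pEx5 and 8.5 in mEx5, a difference of 22.3 points. These differences were not tested, since the genes were chosen for them. Groups of 2 libraries are too small to test for single outlying libraries.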

How the results depend on the processing

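The count of 26 members changed on knockdown in both lines was 19 to 25 over the fits that each left out 1 library, and 24 with total-read scaling, which placed 11 higher and 13 lower. Over single omissions the count for knockdown in pEx5 (18) was 9 to 17, in mEx5 (19) 9 to 19, for induction in pEx5 (7) 3 to 8 and in mEx5 (7) 5 to 7. Induced against control gave 3 to 6 in pEx5 (6) and 1 to 7 in mEx5 (7), and the control lines 3 to 12 (12). Event counts were 15 to 17 for knockdown in both lines (16), 13 to 15 in pEx5 (15), 10 to 16 in mEx5 (16), and 7 to 12 and 10 to 11 for induction in pEx5 (11) and mEx5 (10). Without weights, over all events, they were 15 for both lines, 9 and 10 for knockdown in pEx5 and mEx5, and 0 and 2 for induction. Differences between lines stayed at 0 in every alternative run. A lone library in a left-out group was assumed to vary like the other groups. With total-read scaling, calls over all genes were 2915 higher and 2169 lower, against 2584 and 2436. The replicate block gave 24 members and 16 events for knockdown in both lines; letters A and B did not pair the libraries (correlations of deviations -0.13 to 0.16, over 0.1 in 2 of 15 pairs). Low reads limit Bbs10, Bbs12 and the microexon of Bbs9.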
